A study of Mus musculus with 10 samples.

Results

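The 4 Pou3f genes of the mouse (Pou3f1, Pou3f2, Pou3f3 and Pou3f4, also called Oct-6, Brn-2, Brn-1 and Brn-4) were followed in single-cell RNA sequencing of whole cortex at E16.5. They were taken by name, and all 4 were found among the 31053 genes of the count matrices. The study compared 3 wild type embryos (WT, Gatad2b +/+), 4 heterozygous embryos (Het, Gatad2b stop/+) and 3 homozygous embryos (KO, Gatad2b stop/stop), each embryo giving 1 library. The stop allele carries the tm1a targeting cassette in Gatad2b, a subunit of the NuRD chromatin remodeling and deacetylase complex, and it was present in every cell of the animal rather than in chosen cell types. All embryos shared the C57BL/6N-A tm1Brd background. Cells were clustered and the clusters grouped into classes by lists of marker genes, such as Cux1, Cux2, Unc5d, Dok5 and Inhba for layer II-IV. These names are likenesses to published cell types, not identities.

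POU domain factors bind octamer-like DNA through a POU-specific domain and a homeodomain, often beside a SOX protein on neighboring bases. Pou3f2 and Pou3f3 are known for overlapping roles in cortical progenitors and in the production and migration of upper layer neurons. Pou3f1 is best known from myelinating Schwann cells and is also found in young cortical projection neurons, and Pou3f4, on the X chromosome, is known from the inner ear and from the ventral forebrain, where inhibitory neurons arise.

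Each of the genes has a single exon, so reads of one member could in principle fall on another where their coding sequences are near identical. Pou3f1 (ENSMUSG00000090125) lies at chr4:124656807-124660655 on the plus strand, Pou3f2 (ENSMUSG00000095139) at chr4:22482780-22488366 on the minus strand, Pou3f3 (ENSMUSG00000045515) at chr1:42695768-42703176 on the plus strand and Pou3f4 (ENSMUSG00000056854) at chrX:110814280-110817207 on the plus strand of GRCm38. The stretch of 60 coding bases most alike in the 4 genes is shown here from the genome, 5′ to 3′ on the coding strand, to let their likeness be seen. Capitals mark the 10 positions that are not the same in all 4 genes.
Pou3f1, codons 284 to 303, chr4:124658556-124658615: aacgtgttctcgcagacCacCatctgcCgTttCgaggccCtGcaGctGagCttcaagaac
Pou3f2, codons 303 to 322, chr4:22487166-22487225: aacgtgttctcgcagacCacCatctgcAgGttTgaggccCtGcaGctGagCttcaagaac
Pou3f3, codons 350 to 369, chr1:42698193-42698252: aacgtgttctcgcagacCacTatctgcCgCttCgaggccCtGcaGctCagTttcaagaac
Pou3f4, codons 225 to 244, chrX:110815137-110815196: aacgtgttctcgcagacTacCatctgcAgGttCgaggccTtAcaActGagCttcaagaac
Against Pou3f2, the stretch had 57 identical bases in Pou3f1, 54 in Pou3f3 and 55 in Pou3f4. Over the whole coding sequence, the aligned bases were 71.6% (Pou3f1 and Pou3f4) to 76.4% (Pou3f2 and Pou3f3) identical. The libraries were read near the 3′ end, however, and the last 500 bases of each transcript shared no run of 31 bases with another member. The only shared runs were 8, between the full transcripts of Pou3f1 and Pou3f2.

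The RefSeq promoters of Pou3f2, Pou3f3 and Pou3f4 (GRCm38.p6, 250 bases before the start and 50 after) are shown because members moved together in several classes below. Capitals mark CCAAT or, on the opposite strand, ATTGG.
Pou3f2, chr4:22488317-22488616, minus strand: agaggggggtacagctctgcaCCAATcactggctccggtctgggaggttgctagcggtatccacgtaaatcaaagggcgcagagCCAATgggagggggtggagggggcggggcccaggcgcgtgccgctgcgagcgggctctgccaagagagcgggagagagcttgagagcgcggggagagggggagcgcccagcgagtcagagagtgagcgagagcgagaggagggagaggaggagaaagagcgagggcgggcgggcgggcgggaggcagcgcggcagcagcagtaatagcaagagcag
Pou3f3, chr1:42695518-42695817, plus strand: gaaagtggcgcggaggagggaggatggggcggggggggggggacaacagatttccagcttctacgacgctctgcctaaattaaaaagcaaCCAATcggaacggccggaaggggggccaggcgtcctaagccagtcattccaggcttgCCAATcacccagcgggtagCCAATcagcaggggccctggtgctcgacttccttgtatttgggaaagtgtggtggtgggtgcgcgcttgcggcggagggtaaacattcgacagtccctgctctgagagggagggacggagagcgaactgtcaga
Pou3f4, chrX:110814129-110814428, plus strand: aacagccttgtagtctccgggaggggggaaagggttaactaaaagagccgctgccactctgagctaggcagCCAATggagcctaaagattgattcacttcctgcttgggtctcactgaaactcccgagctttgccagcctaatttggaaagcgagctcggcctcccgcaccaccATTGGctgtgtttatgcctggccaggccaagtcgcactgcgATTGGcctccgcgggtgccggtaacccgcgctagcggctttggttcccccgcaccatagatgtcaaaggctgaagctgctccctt
CCAAT, searched on both strands, was in all 3 of these promoters and in 37.4% of 32851 mouse promoters of the same length. TATAAA, ATGCAAAT and ATGCAT were in none of the 3, against 13.6%, 1.74% and 5.04% of all promoters. GATA was in the Pou3f2 promoter (57.9% of all promoters) and GGGCGG in those of Pou3f2 and Pou3f3 (35.7%). The promoters held 24 (Pou3f2), 18 (Pou3f3) and 15 (Pou3f4) CpG dinucleotides, where the median of all promoters was 7.

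In all, 65779 of 80071 deposited barcodes had at least 1000 unique molecular identifiers (UMIs, counted transcripts) and at most 10% mitochondrial UMIs, 5147 to 8103 per embryo. Their UMIs summed to 82872641 to 123737385 per embryo. Gatad2b differed from WT by −0.54 (Het) and −1.32 (KO) on the log2 scale, and the 3 genotypes did not overlap. Pairs of libraries shared 4 to 19 barcodes. The file names gave WT 1 to 3 and Het 4 one prefix, and Het 1 to 3 and KO 1 to 3 another, so that prefix and genotype cannot be told apart between KO and WT, nor fully between Het and WT. A fit with the prefix as a covariate can estimate its effect only from Het 4 against Het 1 to 3. Levels are given as UMIs per 1000000 UMIs (CPM). Choroid plexus markers (7 genes led by Ttr) summed to 1820 CPM in WT 1, 112 in WT 2 and 0.748 to 4.47 in the other 8 embryos. Because Pou3f4 is X-linked, Xist and Y-linked transcripts were also read: WT 1 and Het 2 had Y-linked UMIs, WT 3 had 14 Xist UMIs and none of Ddx3y or Eif2s3y, and the other 7 had Xist. These were KO 1 to 3, Het 1, 3 and 4 and, of the WT embryos, only WT 2, so sex was not balanced between KO and WT. The part of sex in the Pou3f4 changes below was not tested.

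Among WT classes, Pou3f2 and Pou3f3 were highest in intermediate progenitors, the cells that divide in the subventricular zone to give projection neurons. Levels are CPM of a class, mean ± SD over the 3 WT embryos, and are compared for 1 gene across classes. Pou3f2 read 875 ± 58.5 in intermediate progenitors, 645 in layer II-IV neurons, 568 in mitotic progenitors, 280 in radial glia and 156 in layer V-VI neurons. That order held in 10 of 10 embryos, with no overlap of WT embryos between neighbors. Pou3f3 was spread more widely, from 680 in intermediate progenitors, 569 in layer II-IV and 479 in mitotic progenitors to 323 in radial glia, again in the same order in 10 of 10 embryos. Below these, Pou3f3 read 248 in striatal inhibitory neurons, 244 in interneurons and 217 in layer V-VI, and WT embryos of neighboring classes overlapped there. Within the layer II-IV class, the cluster led by Pdzrn3 and Unc5d had higher means than intermediate progenitors. It read 1017 CPM of Pou3f2 (921 to 1102) and 862 of Pou3f3 (791 to 949) in WT.

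Pou3f1 was highest in postmitotic neurons, with 331 ± 26.1 CPM in layer II-IV, 295 in striatal inhibitory neurons, 207 in intermediate progenitors and 153 in layer V-VI, against 59.8 in radial glia and 22.6 in interneurons. The 2 highest classes overlapped, and layer II-IV was above striatal neurons in 3 of 10 embryos. The striatal cluster led by Ebf1 and Isl1 read 394 (369 to 412) in WT. Pou3f4 followed the inhibitory lineages and dividing cells. It read 145 in striatal inhibitory neurons, 106 in mitotic progenitors, 48.1 in interneurons and 38.6 in radial glia, but 15.9 in layer II-IV and 6.44 in layer V-VI. Striatal neurons were above mitotic progenitors in 10 of 10 embryos, whereas interneurons and radial glia overlapped.

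Erythroid cells, which should lack these genes, read 10.3 (Pou3f1), 16.2 (Pou3f2), 28.7 (Pou3f3) and 1.98 (Pou3f4) CPM in WT, a low estimate of free RNA in the droplets. Other non-neural classes read more in WT. In the same order, microglia read 71.0, 137, 95.3 and 5.53, and endothelial cells 80.8, 88.6, 93.3 and 9.04. The source of these UMIs was not tested. Cajal-Retzius cells, the Reln-expressing cells of layer I, read 32.2, 35.2, 44.8 and 1.97 for the 4 genes in the same order, so that Pou3f4 was at the erythroid level there. In KO embryos the erythroid levels of the first 3 genes were 2.38, 3.36 and 5.25, all lower than in WT. The shift was not particular to them. Of the genes with over 3 erythroid UMIs in every embryo, 83.8% were lower in every KO embryo than in every WT embryo. In edgeR's quasi-likelihood test, which rescales the libraries, none of the 3 was called (−0.40, −0.51 and −0.72, adjusted p = 0.707, 0.636 and 0.244).

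**Figure D1:**
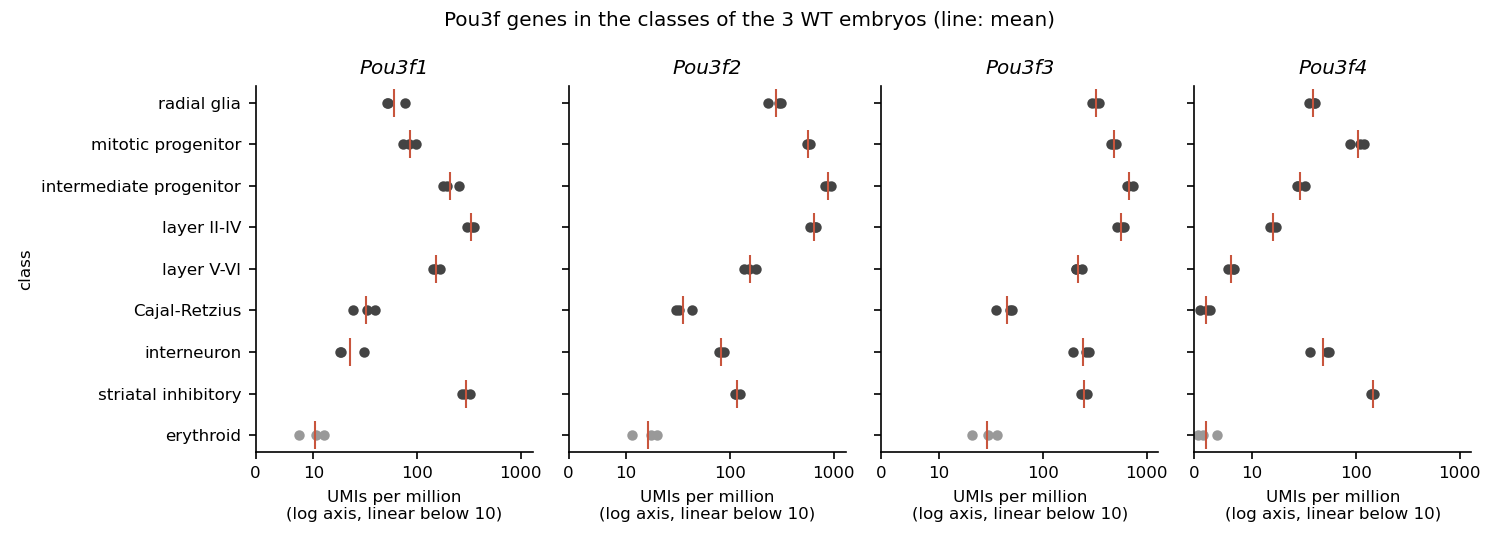
Each point is 1 WT embryo and each red line the mean of 3, with the CPM of the class on a log axis that is linear below 10. Among these classes, Pou3f2 and Pou3f3 peak in intermediate progenitors at 875 and 680. Pou3f1 peaks in layer II-IV at 331 and Pou3f4 in striatal inhibitory neurons at 145. The gray points are erythroid cells.

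Over 23 clusters with at least 20 cells in every WT embryo, the genes whose pattern was most like Pou3f2 were Pou3f3 (Pearson r = 0.87), Pantr1 (0.85) and Gm26604 (0.83), each r taken over cluster means of log2 values from the same libraries. For Pou3f3 the closest was Pantr1 (0.94), a noncoding gene next to Pou3f3. Pou3f1 was closest to Foxp4 (0.77), Lmo4 (0.77) and Meis2 (0.77), and Pou3f4 to Meis1 (0.84), Nkx2-3 (0.81) and Sox1 (0.81). Among the members, Pou3f1 and Pou3f4 were least alike (0.38).

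The comparison of KO with WT asks which genes change when both Gatad2b alleles carry the stop. Over all cells, Pou3f2 fell, and no other member passed the test in the main fit. Pou3f1 passed in 4 other settings, given below. Pou3f4 passed with at most 5% mitochondrial UMIs (0.27, adjusted p = 0.0374 in edgeR) and without KO 1 (0.33, adjusted p = 0.029). Pou3f2 read 417, 332 and 353 CPM in WT 1 to 3 and 234, 297 and 306 in KO 1 to 3, so the groups did not overlap. The change was −0.35 ± 0.12 on the log2 scale (SE, adjusted p = 0.0326 in edgeR's quasi-likelihood test). A gene was called when its adjusted p was under 0.05 over all genes tested and its log2 change beyond 0.25, and 24.5% of all genes were called in this comparison, 12.5% as lower. In a sum over all cells, fewer cells of a type and less RNA per cell cannot be told apart. The median share of mitochondrial UMIs per cell ran from 3.72 to 3.97% over the WT embryos and from 4.31 to 4.58% over the KO embryos, without overlap (Het 3.601 to 4.66%), and its part in the Pou3f2 change was not tested beyond the limit of 5% given with the other settings.

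Pou3f1 read 225, 178 and 204 in WT and 143, 185 and 165 in KO, which overlapped (−0.25 ± 0.10, adjusted p = 0.0598). Pou3f1 was called with DESeq2 (−0.25, adjusted p = 0.029), without the filter on low counts (−0.26, adjusted p = 0.0471), with at least 3000 UMIs per cell (−0.27, adjusted p = 0.0478) and with at most 5% mitochondrial UMIs (−0.27, adjusted p = 0.0418), and also without WT 2 (−0.34) or KO 2 (−0.36). Pou3f3 read 420, 339 and 368 in WT and 343, 391 and 396 in KO (0.04 ± 0.10, adjusted p = 0.745). Pou3f4 read 26.2, 28.2 and 31.5 in WT and 24.9, 36.0 and 34.3 in KO (0.19 ± 0.12, adjusted p = 0.247). These 2 genes also overlapped between genotypes. The call of Pou3f2 was lost without WT 1 (−0.26, adjusted p = 0.12), without WT 3 (−0.40, adjusted p = 0.0511) or without KO 1 (−0.25, adjusted p = 0.121), and also with the prefix as a covariate (−0.44, adjusted p = 0.226) or at most 5% mitochondrial UMIs (−0.29, adjusted p = 0.073). With every cluster held at its mean WT share of cells, the Pou3f2 difference was −0.56 (exact permutation p = 0.1, the smallest that 3 against 3 embryos allow). That value averages the CPM of clusters by their share of cells, whereas the fit uses summed UMIs, in which deeper cells weigh more. The 2 values therefore differ in measure as well as in cell shares, and these were not separated.

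**Figure D2:**
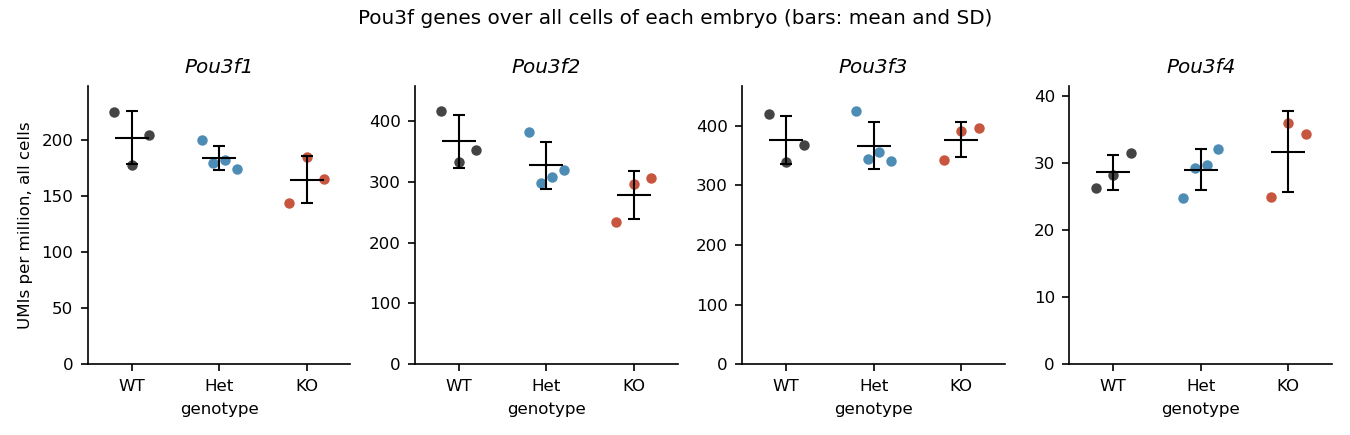
Points are embryos, bars the mean and SD, and the axis CPM over all cells. The KO points of Pou3f2 (234 to 306) lie below the WT points (332 to 417), and the genotypes overlap for the other 3 genes.

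Each class was then fitted on its own. Of 32 pairs of a member and a neural class, 14 were called between KO and WT, 10 lower and 4 higher, where 5.49% (Cajal-Retzius) to 30.1% (layer II-IV) of all genes were called in these 8 classes. Pou3f2 fell in 4 classes and rose in none, Pou3f1 fell in 2 and rose in 1, Pou3f3 fell in 1 and rose in 1, and Pou3f4 fell in 3 and rose in 2. The median log2 change over the 8 classes was −0.40 for Pou3f2 and between −0.24 and 0.03 for the other members.

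**Figure D3:**
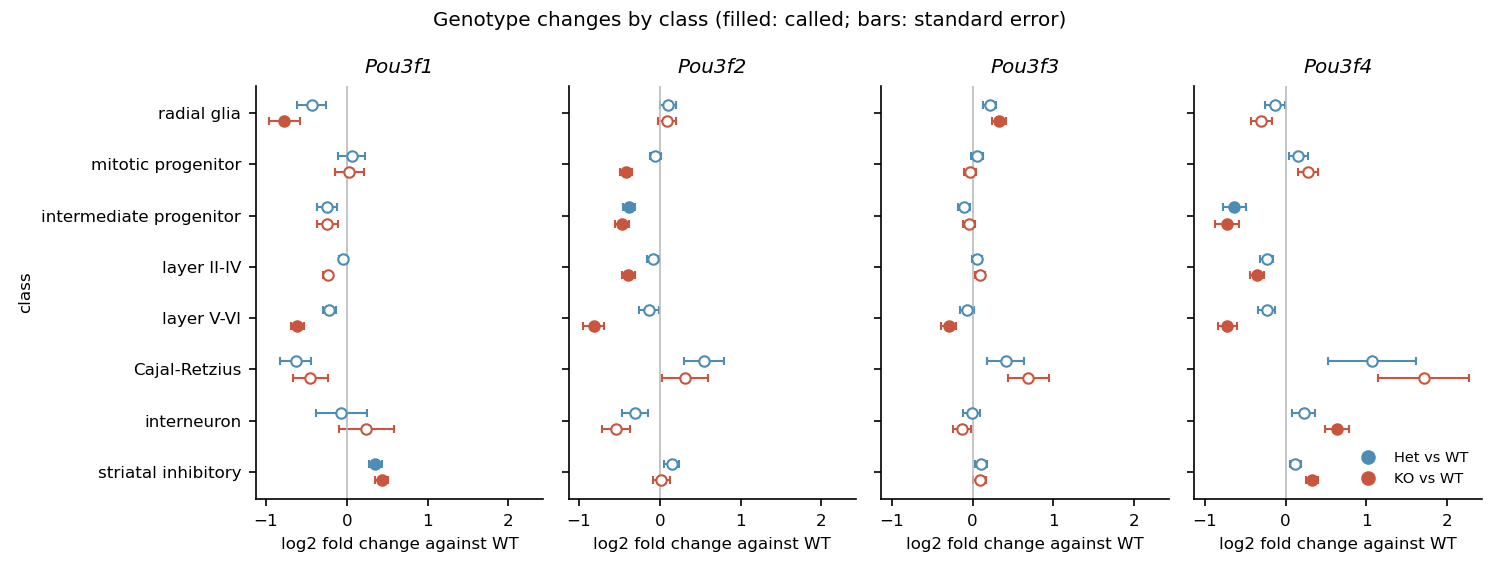
Log2 fold changes against WT by class, with standard errors as bars and filled points for changes that were called. Pou3f2 lies left of 0 in mitotic and intermediate progenitors and in projection neurons of the KO embryos, but not in radial glia (0.09), and Pou3f4 crosses from −0.72 in layer V-VI to 0.64 in interneurons in the KO embryos.

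Layer V-VI neurons, the deep layer cells that project below the cortex, had all 4 members called lower in KO, where 22.9% of all genes were called and 11.5% as lower. Pou3f2 read 180, 153 and 135 CPM in WT and 68.6, 106 and 81.9 in KO. Every KO embryo was below every WT embryo, and the change was −0.82 ± 0.13 (adjusted p = 0.000528). Pou3f1 read 168, 143 and 149 in WT and 83.3, 102 and 106 in KO, also without overlap (−0.61 ± 0.08, adjusted p = 0.000133). Pou3f3 read 236, 207 and 208 in WT and 151, 195 and 166 in KO, a smaller difference whose groups did not overlap either (−0.30 ± 0.09, adjusted p = 0.0227). Pou3f4 was low there, at 6.88, 6.63 and 5.80 in WT and 3.63, 4.11 and 3.63 in KO (−0.72 ± 0.12, adjusted p = 0.000584). Leaving out each embryo in turn ended the call of Pou3f3 in 3 of 10 fits (without WT 1, KO 1 or KO 3) and of no other member. The Pou3f3 call was also lost in 4 of 12 other settings, over which its value ran from −0.49 to −0.14.

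Markers of other cells moved in both directions in the layer V-VI class. The 12 interneuron markers summed to 214 to 264 CPM in WT embryos and 109 to 142 in KO embryos, with Het at 245 to 270, and the 5 measured subplate markers to 134 to 154 in WT and 62.1 to 69.8 in KO. Of the 4 progenitor lists 2 rose and 2 fell, all without overlap. Markers of intermediate progenitors were at 51.5 to 62.5 in WT and 81.2 to 97.2 in KO and those of radial glia at 149 to 203 and 214 to 242, while mitotic markers (12.6 to 18.3 and 9.98 to 11.997) and ganglionic eminence markers (15.996 to 22.7 and 12.03 to 15.8) were lower in KO. Layer II-IV, striatal and Cajal-Retzius markers overlapped between WT and KO. The class's own 8 markers summed to 1314 to 1479 in WT and 1502 to 1565 in KO. The part of these shifts in the Pou3f changes was not tested. Split by cluster, which was added after the data were seen, Pou3f2 fell by 0.94 in the cluster led by Fezf2 and Ldb2, genes of subcerebral projection neurons (367 to 184 CPM, SE 0.07, adjusted p = 1.67e-08). Pou3f4 fell there by 0.98 and Pou3f1 by 0.46. Pou3f1 fell most in the cluster led by Crym and Grp (152 to 68.4 CPM, −1.12 ± 0.13, adjusted p = 3.33e-05), and Pou3f3 in the one led by Hs3st4 and Tle4, corticothalamic genes (98.6 to 59.97 CPM, −0.68 ± 0.18, adjusted p = 0.0108). In these clusters 23.8%, 18.1% and 20.3% of all genes were called. Pou3f2 and Pou3f4 overlapped between WT and KO in the cluster led by Crym and Grp and in the one led by Hs3st4 and Tle4. Pou3f2 read 49.1 to 81.1 CPM in WT and 25.7 to 53.0 in KO in the former, and 32.8 to 45.4 and 15.8 to 42.2 in the latter. Pou3f1 also overlapped in the latter.

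In layer II-IV neurons, the upper layer cells that connect cortical areas, Pou3f2 and Pou3f4 fell in KO, with 30.1% of all genes called and 15.8% as lower. Pou3f2 read 679, 590 and 665 in WT and 417, 485 and 541 in KO, which did not overlap (−0.39 ± 0.08, adjusted p = 0.00111). Pou3f4 read 14.9, 16.9 and 15.9 in WT and 10.7, 12.01 and 13.8 in KO, again without overlap (−0.35 ± 0.09, adjusted p = 0.00542). Pou3f1 had 341, 301 and 351 in WT and 259, 284 and 279 in KO, a difference of −0.23 ± 0.06 (adjusted p = 0.0041) that was under the fold limit for a call. Pou3f3 overlapped, at 603, 523 and 582 in WT and 556, 596 and 621 in KO (0.09 ± 0.06, adjusted p = 0.27).

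The class had 2 clusters that differed in Pou3f2, and their proportions moved with genotype. The cluster led by Pdzrn3 and Unc5d read 1017 CPM of Pou3f2 in WT and made up 34.0 to 40.8% of the WT cells of that class. Its share was 40.9 to 46.9% among Het and 51.5 to 56.9% among KO embryos. The cluster led by Inhba read 495. Fitted per cluster, the fall of Pou3f2 was larger than in the class as a whole: −0.49 ± 0.08 (adjusted p = 0.000342) in the first and −0.62 ± 0.05 (adjusted p = 2.39e-07) in the second, where 25.2% and 27.8% of all genes were called. Pou3f4 was called lower in both (−0.51 and −0.30). The class's own 6 markers fell without overlap, from 1279 to 1368 CPM in WT to 1090.1 to 1176 in KO, and the 8 layer V-VI markers were higher, at 222 to 263 in WT and 341 to 368 in KO. Interneuron markers in the layer II-IV class summed to 125 to 144 CPM in WT and 61.6 to 68.3 in KO, and the 6 intermediate progenitor markers to 69.3 to 79.1 in WT and 130.2 to 164 in KO. Other lists in that class also moved without overlap, with layer V-VI markers at 222 to 263 CPM in WT and 341 to 368 in KO, radial glia markers at 132 to 145 and 169 to 186, subplate markers at 47.3 to 58.6 and 63.9 to 68.3, and Cajal-Retzius markers at 14.3 to 17.1 and 27.9 to 35.6. Ganglionic eminence progenitor markers went the other way, from 22.8 to 26.9 in WT to 10.1 to 11.5 in KO, as did striatal inhibitory markers (16.9 to 20.6 and 10.1 to 14.7). Their part in the changes was not tested.

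Intermediate progenitors showed a fall of Pou3f2 and Pou3f4 in KO, with 15.5% of all genes called and 7.93% as lower. Pou3f2 read 938, 867 and 822 in WT and 518, 653 and 666 in KO (−0.47 ± 0.08, adjusted p = 0.000964). Pou3f4 read 27.2, 27.8 and 32.7 in WT and 14.9, 18.6 and 18.002 in KO (−0.72 ± 0.15, adjusted p = 0.00285). Neither gene overlapped between the genotypes. Markers of other classes moved with them, those of radial glia at 731 to 861 CPM in WT and 1141 to 1420 in KO and mitotic markers at 80.5 to 89.5 and 60.7 to 63.4, both without overlap, and their part was not tested. These cells made up 2.72 to 2.88% of cells in WT and 5.38 to 6.22% in KO. Pou3f3, at 650 to 734 in WT and 582 to 668 in KO, and Pou3f1, at 177 to 252 and 144 to 185, did not pass the test (adjusted p = 0.751 and 0.229).

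In mitotic progenitors, the cycling cells led by Top2a and Mki67, Pou3f2 fell from 587, 564 and 552 in WT to 395, 413 and 422.2 in KO, where 9.32% of all genes were called. The groups did not overlap (−0.42 ± 0.07, adjusted p = 0.00376). Layer II-IV markers (322 to 359 CPM in WT and 264 to 296 in KO) and oligodendrocyte precursor markers (47.2 to 74.4 and 18.5 to 27.6) were lower in this class in KO without overlap, and their part was not tested. The other members were not called there, Pou3f4 reading 88.0 to 120 in WT and 117 to 128 in KO (0.27 ± 0.12, adjusted p = 0.174). In radial glia, the stem cells that line the ventricle, Pou3f2 read 233, 298 and 309 in WT and 273, 312 and 292 in KO, with overlap (0.09 ± 0.11, adjusted p = 0.59). Pou3f1 fell from 50.9, 52.0 and 76.4 to 43.1, 24.7 and 32.4 (−0.77 ± 0.20, adjusted p = 0.0145) and Pou3f3 rose from 294, 326 and 348 to 416, 374 and 399 (0.33 ± 0.08, adjusted p = 0.0154), with 19.8% of all genes called. In that class choroid plexus markers summed to 55293 CPM in WT 1, 2843 in WT 2 and 2.70 to 18.1 in the other embryos, and oligodendrocyte precursor markers to 491 to 548 in WT and 226 to 246 in KO. Mitotic markers summed to 1619 to 2150 in WT and 2544 to 2830 in KO, and intermediate progenitor markers to 303 to 407 in WT and 448 to 520 in KO, both without overlap. The part of these shifts was not tested. The Pou3f1 call was lost without WT 3, KO 2 or KO 3 and the Pou3f3 call without KO 1. Of 12 other settings, 10 kept the Pou3f1 call (−1.20 to −0.45) and 7 the Pou3f3 call (0.21 to 0.37).

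Pou3f4 was called higher in both classes of inhibitory neurons, and Pou3f1 in striatal neurons. In striatal inhibitory neurons, Pou3f1 rose from 325, 271 and 290 in WT to 353, 446 and 367 in KO (0.43 ± 0.08, adjusted p = 0.00234). Pou3f4 rose there from 140, 150 and 145 to 157, 187 and 188 (0.33 ± 0.08, adjusted p = 0.0074). Neither gene overlapped between WT and KO, and 15.5% of all genes were called. The Pou3f4 call was lost without KO 2 (0.28) and, of 12 other settings, at a clustering resolution of 0.8 (0.18, adjusted p = 0.122). Other markers rose in these cells as well without overlap, those of ganglionic eminence progenitors at 416 to 478 CPM in WT and 481 to 623 in KO, mitotic markers (46.0 to 49.4 and 71.8 to 73.7), and intermediate progenitor markers (86.8 to 96.4 and 128 to 151). Their part in the changes was not tested. Pou3f2 (0.02 ± 0.10) and Pou3f3 (0.09 ± 0.08) overlapped and were not called. Per cluster, Pou3f1 was called higher in the cluster led by Ebf1 and Isl1, striatonigral neuron genes (394 to 694 CPM, 0.84 ± 0.09, adjusted p = 1.04e-05, with 7.35% of genes called). In the cluster led by Six3 and Sp9 it read 239 in WT and 216 in KO (−0.10 ± 0.13, adjusted p = 0.652), a difference between clusters that was not tested, whereas Pou3f4 was called there (0.36 ± 0.08, adjusted p = 0.00486, with 13.4% of genes called).

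In interneurons, the migrating cells led by Maf, Lhx6 or Adarb2, Pou3f4 read 52.5, 36.2 and 55.5 in WT and 61.1, 79.0 and 81.0 in KO. The groups did not overlap, and the change of 0.64 ± 0.15 was called (adjusted p = 0.0243), as were 8.07% of all genes. The call was lost without KO 2 or KO 3. Pou3f1 overlapped, at 18.3 to 31.1 in WT and 11.3 to 36.7 in KO (0.24 ± 0.34, adjusted p = 0.689). Pou3f2 read 88.0, 82.1 and 77.8 in WT and 38.5, 71.2 and 59.3 in KO, lower in every KO embryo but not called (−0.54 ± 0.18, adjusted p = 0.0764). The 5 markers of ganglionic eminence progenitors summed to 606 to 753 CPM in WT interneurons and 828 to 835 in KO, and the 6 intermediate progenitor markers to 39.0 to 49.6 in WT and 77.2 to 107 in KO, both without overlap. Their part in the Pou3f4 change was not tested. In Cajal-Retzius cells edgeR called no member (5.49% of all genes), and Pou3f3 and Pou3f4 had unadjusted p under 0.05. In the 3 non-neural classes with enough cells (erythroid, microglia and mural or fibroblast), 1 change was called, a fall of Pou3f3 in mural or fibroblast cells from 45.2 to 61.7 CPM in WT to 2.54 to 19.9 in KO (adjusted p = 0.0465, with 0.286% of genes called). That class held 20 to 45 cells per embryo, and Pou3f3 in erythroid cells went from 28.7 to 5.25.

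**Figure D4:**
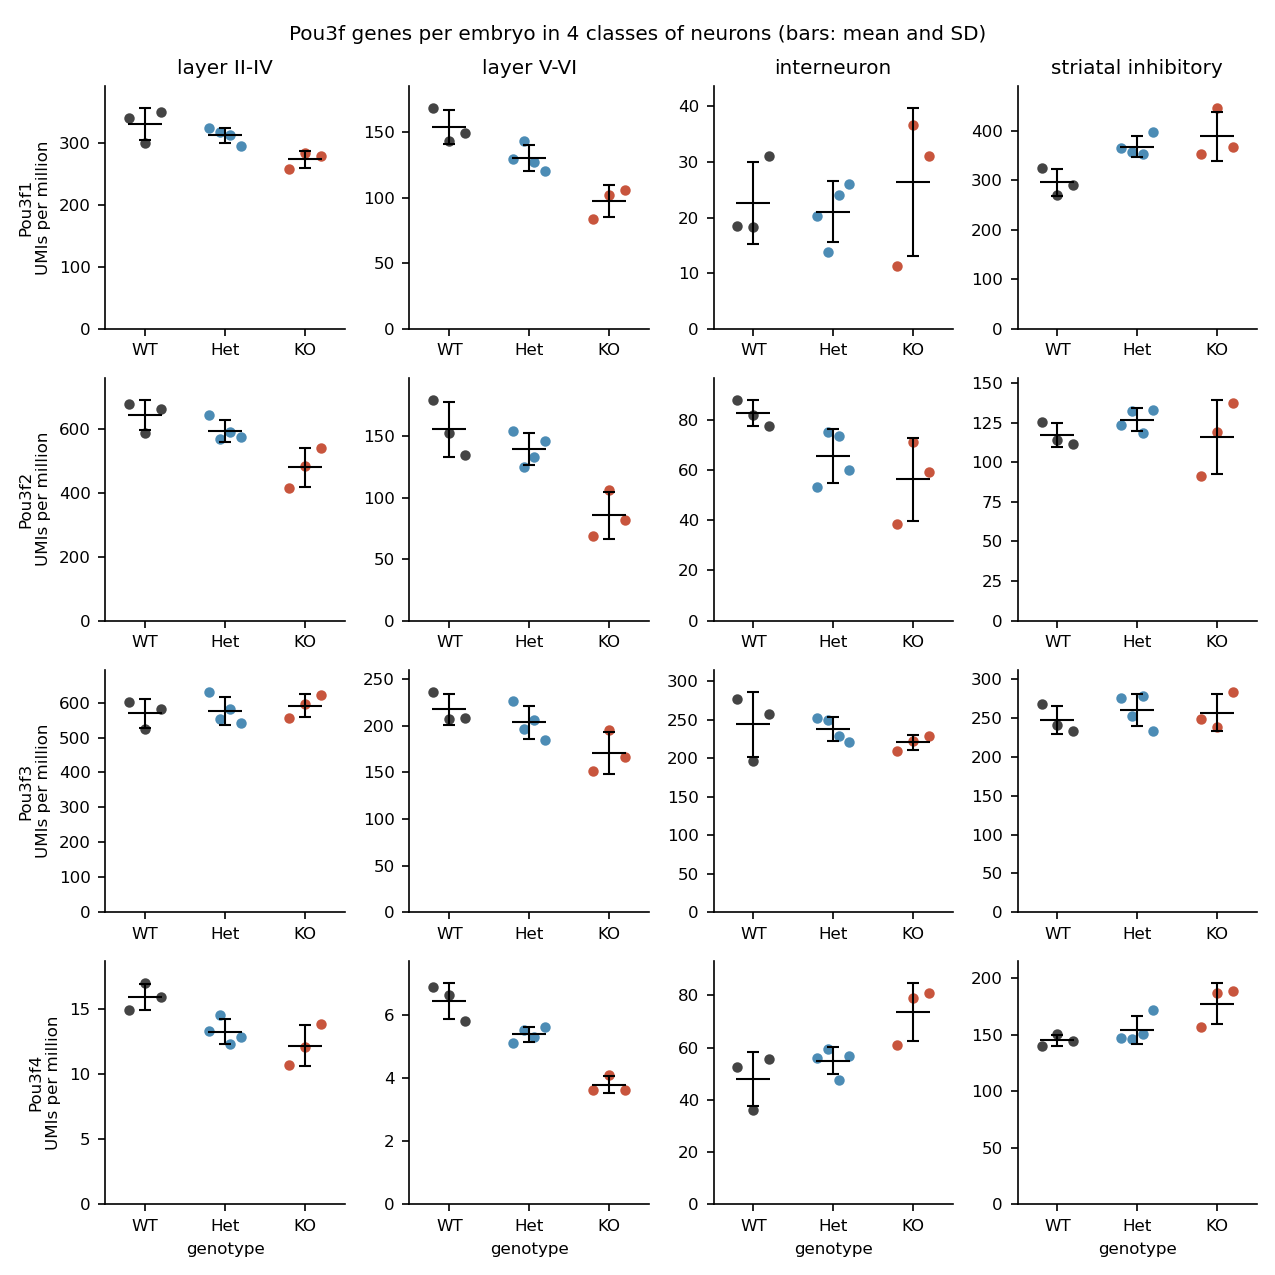
CPM of the class for each embryo, with mean and SD as bars, genes in rows and classes of neurons in columns. In layer V-VI all 4 genes are lower in KO than in WT without overlap, while Pou3f4 is higher in KO in interneurons (61.1 to 81.0 against 36.2 to 55.5) and Pou3f1 and Pou3f4 in striatal inhibitory neurons.

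A change in a class and none in another does not show that they differ, so the difference itself was tested with the embryo as a block. Between layer V-VI and layer II-IV, the KO change was lower in layer V-VI for Pou3f1 (−0.38 ± 0.06, adjusted p = 0.000635), Pou3f2 (−0.44 ± 0.11, adjusted p = 0.0146) and Pou3f3 (−0.39 ± 0.06, adjusted p = 0.000271), where 9.52% of all genes differed. Pou3f4 had a like estimate that did not pass (−0.36 ± 0.13, adjusted p = 0.086). For Pou3f4, the KO change in interneurons was higher than in layer II-IV by 1.00 ± 0.16 (adjusted p = 0.00125, with 5.71% of genes called) and higher than in layer V-VI by 1.36 ± 0.19 (adjusted p = 0.00094, with 4.75% of genes called). The test did not call Pou3f2 between interneurons and layer V-VI (0.26 ± 0.17, adjusted p = 0.455). Against Het, the KO changes of Pou3f2 and Pou3f3 were again lower in layer V-VI than in layer II-IV (4.81% of all genes called), and that of Pou3f4 higher in interneurons than in layer V-VI (1.48%).

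The comparison of Het with WT asks what changes when a single allele carries the stop. Over all cells no member was called by edgeR, where 2.98% of genes were called, none had an unadjusted p under 0.05 and DESeq2 called none either. The log2 changes ran from −0.13 (Pou3f2) to 0.06 (Pou3f4). Over the 8 classes, 0% (interneurons) to 6.25% (layer II-IV) of all genes were called. Of the 32 pairs of a member and a class, 3 were called, in classes where 1.02% (intermediate progenitors) and 1.93% (striatal inhibitory neurons) of all genes were called. Pou3f2 in intermediate progenitors read 697, 601, 693 and 636 in Het 1 to 4, all below the WT range of 822 to 938 (−0.38 ± 0.08, adjusted p = 0.028). Pou3f4 in the same class read 15.2, 21.6, 21.7 and 16.4, also below WT (−0.63 ± 0.14, adjusted p = 0.0422). Pou3f1 in striatal inhibitory neurons read 364, 357, 352 and 398, above the WT range of 271 to 325 (0.35 ± 0.08, adjusted p = 0.0356). Leaving out each embryo in turn kept these calls in 6, 3 and 4 of 10 fits, and 12 other settings kept them in 11, 6 and 10. A prefix covariate ended all 3 calls (−0.43, −0.80 and 0.45), and 3 of the 4 Het embryos differ from WT in prefix. The part of any shift in markers of other cells in these Het changes was not tested.

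Het and KO embryos were compared directly, and again among the 6 embryos of 1 file prefix (Het 1 to 3 and KO 1 to 3). Over all cells no member was called by edgeR, with all embryos (5.5% of genes called) or within the prefix (6.14%), where Pou3f1 and Pou3f2 had unadjusted p of 0.0444 and 0.0464. With all embryos, 5 of 32 pairs of a member and a class were called, all lower in KO. Pou3f2 fell by 0.69 in layer V-VI (adjusted p = 0.00298), by 0.30 in layer II-IV (adjusted p = 0.00947) and by 0.36 in mitotic progenitors (adjusted p = 0.0452), with 8.32%, 11.8% and 0.201% of genes called. The call in mitotic progenitors was kept in 1 of 10 fits that left out an embryo and in 5 of 12 other settings, and it was not made within the prefix (−0.35, adjusted p = 0.102). The Pou3f2 call in layer II-IV was kept in 9 of 10 fits that left out an embryo. In layer V-VI, Pou3f1 fell by 0.40 and Pou3f4 by 0.49 (adjusted p = 0.00502 and 0.0142). The Pou3f4 call there was lost without KO 1 (adjusted p = 0.0586) or KO 3 (adjusted p = 0.057), and in 3 of 12 other settings, at most 5% mitochondrial UMIs (−0.24), clustering without integration (−0.39, adjusted p = 0.0631) and clustering with the tested genes kept (−0.26, adjusted p = 0.209).

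Within the prefix, 5 pairs were called, again all lower. In layer V-VI all 4 members were among them, with 8.82% of all genes called and 4.22% as lower: Pou3f1 (−0.44 ± 0.07, adjusted p = 0.00239), Pou3f2 (−0.67 ± 0.12, adjusted p = 0.00465), Pou3f3 (−0.27 ± 0.08, adjusted p = 0.0496) and Pou3f4 (−0.47 ± 0.13, adjusted p = 0.0344). Pou3f2 in layer II-IV was the remaining one (−0.32 ± 0.07, adjusted p = 0.00603, with 12.8% of genes called). The rises of Pou3f4 were of the same sign but not called, in interneurons (0.42 ± 0.11, adjusted p = 0.159, with 0.874% of genes called) and in striatal inhibitory neurons (0.26 ± 0.07, adjusted p = 0.119, with 0.488% of genes called). The rise of Pou3f1 in striatal neurons was 0.12 ± 0.08 (adjusted p = 0.698). With all embryos the rises in KO against Het were 0.41 ± 0.14 for Pou3f4 in interneurons and 0.20 ± 0.07 in striatal neurons, neither called, in classes where 0.445% and 0.576% of all genes were. Leaving out each of the 6 embryos in turn kept the layer V-VI calls of Pou3f1 and Pou3f2 in 6 of 6 fits, but those of Pou3f3 and Pou3f4 in 1 of 6 each. The layer II-IV call of Pou3f2 was kept in 5 of 6. The Pou3f3 call was kept by DESeq2 but not with a replicate block, and the Pou3f4 call by neither. With the prefix as a covariate of the fit, 4 of the 14 KO calls against WT remained: Pou3f2 in intermediate progenitors and layer II-IV, Pou3f1 in layer V-VI and Pou3f4 in striatal neurons. The prefix term of that fit rested on Het 4 against Het 1 to 3, since only Het embryos carried both prefixes. For Pou3f4 in striatal neurons, Het 4 read 172 CPM, apart from the other Het embryos.

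The ratio of Pou3f2 to Pou3f3 UMIs within a library does not depend on how libraries are scaled. Over all cells it was 0.993, 0.979 and 0.958 in WT, 0.904, 0.867, 0.868 and 0.938 in Het, and 0.682, 0.760 and 0.775 in KO. The 3 genotypes did not overlap. In layer II-IV it was 1.13, 1.13 and 1.14 in WT, 1.02, 1.03, 1.02 and 1.07 in Het, and 0.750, 0.814 and 0.870 in KO, again in 3 separate ranges. KO ratios were 0.715 times the WT ratio in layer II-IV, 0.695 in layer V-VI, 0.743 in intermediate progenitors and 0.765 in mitotic progenitors.

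In each of these classes, and over all cells (0.756 times), the exact two-sided permutation test of KO against WT gave p = 0.1, the smallest that 3 against 3 embryos allow, before any adjustment for the 9 ratios compared. Het was below WT without overlap over all cells, in layer II-IV and in intermediate progenitors (1.08, 1.07, 1.00 and 1.12 against 1.28, 1.32 and 1.26 in WT). The exact permutation p was 0.0571 in each of the 3, the smallest that this test allows for 3 against 4 embryos. Het 4, with the WT prefix, had the highest Het ratio in each. It was above every WT embryo in layer V-VI (0.792) and within the WT range in mitotic progenitors (1.19). Within the prefix, KO ratios were 0.839 times the Het ratio over all cells and 0.792 in layer II-IV, without overlap. They were 0.758 in layer V-VI and 0.849 in mitotic progenitors, also without overlap, but overlapped in intermediate progenitors (0.912). In radial glia (0.793 to 0.915 in WT and 0.655 to 0.835 in KO), striatal neurons, interneurons and Cajal-Retzius cells the KO and WT ratios overlapped.

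**Figure D5:**
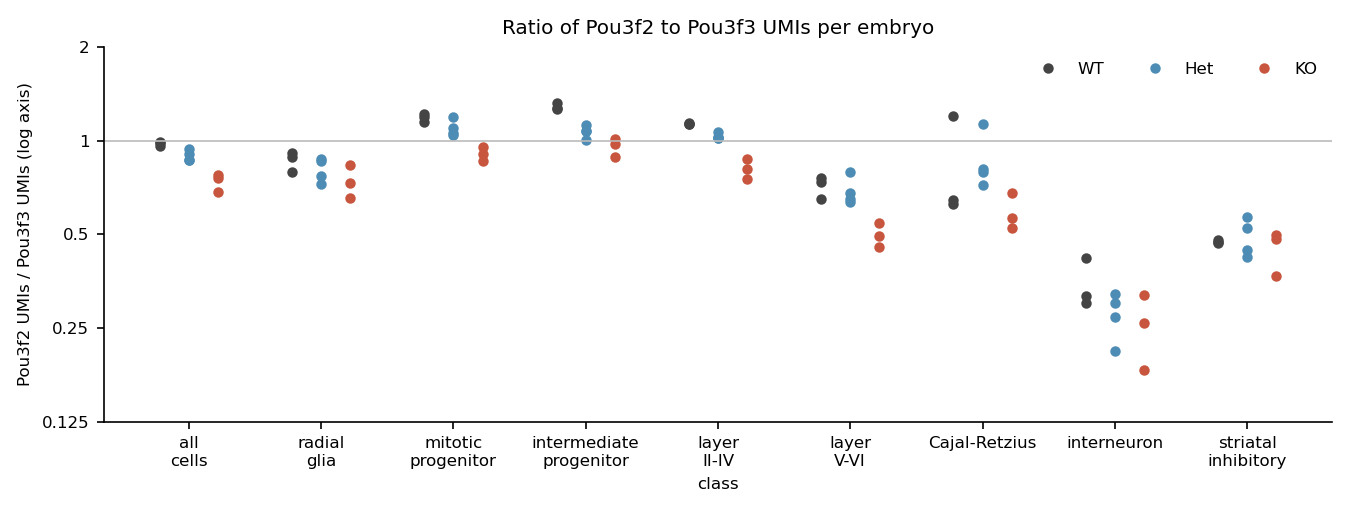
Each point is the Pou3f2 to Pou3f3 UMI ratio of 1 embryo on a log axis, by class and genotype. WT, Het and KO separate in that order over all cells and in layer II-IV (1.13 to 1.14, 1.02 to 1.07 and 0.750 to 0.870), and overlap in striatal inhibitory neurons. The highest Het point over all cells and in layer II-IV is Het 4, whose library carries the WT prefix.

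Seen as cells, the fall of Pou3f2 was a smaller share of cells with a UMI. With each cell thinned to 3000 UMIs, Pou3f2 was found in 73.6% of layer II-IV cells in WT and 65.9% in KO (means of 3 embryos), in 23.6% and 15.2% of layer V-VI cells, and in 80.7% and 71.1% of intermediate progenitors. The erythroid share was 3.74% in WT and 0.742% in KO by the same measure. Unthinned, 95.3% of WT and 92.9% of KO layer II-IV cells had a Pou3f2 UMI, at median depths of 16326 and 18375 UMIs, against 9.02% and 3.06% of erythroid cells at 7896 and 10167. Pou3f4 was found in 12.6% of thinned interneurons in WT and 17.0% in KO, and in 30.4% and 33.8% of striatal inhibitory neurons, where the erythroid share was 0.367% in WT and 0.395% in KO. The striatal shares overlapped between embryos (29.3 to 31.4% in WT and 30.8 to 35.7% in KO). Cells under 3000 UMIs were left out of the thinned shares, 626 WT and 125 KO interneurons, 319 and 90 striatal neurons and 145 and 49 erythroid cells, but at most 30 WT and 3 KO cells in the other classes named. Unthinned, Pou3f4 was found in 20.1% (WT) and 30.7% (KO) of interneurons.

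Genes that work with Pou3f factors were read from lists over all cells. The 6 SOX partners all rose in KO, with a median log2 change of 0.39 where the median of all genes was −0.01 and 12% of all genes were called higher. Sox3 rose by 1.16 ± 0.14 (adjusted p = 0.00018) and Sox11, a neuronal SoxC factor, by 0.40 ± 0.05 (adjusted p = 0.000308). The part of the uneven sex of the embryos in the Sox3 change was not tested. Sox12 (0.28), Sox4 (0.32) and the stem cell factor Sox2 (0.39) were called as well. Of 9 genes linked to Pou3f2 and Pou3f3, 3 rose: Dll1, a Notch ligand of newborn neurons (0.69 ± 0.07, adjusted p = 4.19e-05), Nes, an intermediate filament of neural stem cells (0.50), and Neurog2, a proneural factor (0.59). Rorb was the gene that fell, named after its value was seen, and the other 5 were not called. In KO against Het within the prefix, where 6.14% of all genes were called, 1 of the 6 SOX partners was called (median 0.17). Of the 9 linked genes, 2 were called higher there, Dll1 and Nes, and 1 lower, a gene not called against WT. Neurog2 (0.30, adjusted p = 0.136 in edgeR) and Rorb (−0.13, adjusted p = 0.516) were not called there. The rises in KO against WT stood beside the larger share of intermediate progenitors given above. Mitotic progenitors also made up more of the cells, 3.22 to 4.23% in WT and 5.75 to 6.76% in KO. The part of these shares was not tested.

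Of 11 other POU genes, 9 were tested: 2 were called higher and 1 lower, Pou4f1, Pou4f3 and Pou6f1, named after their values were seen. Of all genes, 12% were called higher and 12.5% lower in this comparison of KO with WT. Pou4f1 and Pou4f3 had 23 to 40 and 4 to 13 UMIs per WT embryo. Pou4f3 had 6 UMIs in Het 4, which carries the WT prefix, and 19 to 25 in Het 1 to 3. Pou6f1, after edgeR's rescaling, read 36.6 CPM in Het 4 and 32.3 to 33.3 in Het 1 to 3. In KO against Het within the prefix, edgeR called none of them: Pou4f1 (0.42, adjusted p = 0.248), Pou4f3 (0.04, adjusted p = 0.952) and Pou6f1 (−0.03, adjusted p = 0.68). Pantr1, the neighbor of Pou3f3, was not called. In Het against WT, Sox3 (0.59 ± 0.13, adjusted p = 0.0392) and Dll1 (0.28 ± 0.06, adjusted p = 0.039) were called of the 25 listed genes tested, where 2.98% of all genes were called. No listed gene was called in 7 of the 10 fits that left out an embryo, nor with the prefix as a covariate.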

How the data were processed

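Cortices of E16.5 embryos were dissociated with papain and loaded fresh on a 10x 3′ v3 chip, 1 library per embryo. The authors deposited raw UMI counts per gene and barcode. Their processing notes name Cell Ranger 6.0.2 and mm10, whereas the methods name another version of Cell Ranger. A barcode was kept from 1000 UMIs upward if no more than 10% of them were mitochondrial. Cells were integrated and clustered with Seurat 5.3.0 (2000 variable genes, 30 components, resolution 0.4), with the genes tested here left out, and clusters were named from marker lists. Doublets marked by simulation (4.8 to 8.31% of cells) were kept, and removed as an alternative.

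Sums of counts per embryo (all cells together, or a class if no embryo had under 20 of its cells) were fitted with edgeR 4.0.16 (R 4.3.3, limma 3.58.1), the quasi-likelihood test with TMM scaling, filterByExpr and Benjamini-Hochberg adjustment over all genes tested, all 10 embryos in 1 fit. A call needed an adjusted p under 0.05 and a log2 change beyond 0.25. The scripts were tested on simulated data. Ratios were compared by exact permutation (Python 3.11.15, scipy 1.17.1). Alternatives were DESeq2 1.42.0, no filter on low genes, a replicate block, the prefix as covariate, other cell filters and clusterings, and leaving out each embryo. Fits per cluster and the ratio's alternatives were chosen after the data were seen.

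The members and the gene lists were chosen with earlier results of these data known. Genes named were the members, then at most 8 listed genes called over all cells, by adjusted p (4 more were named after their values were seen), and for likeness genes from the 5 with the highest r to each member, of 11016 reaching 20 CPM in a cluster. Each embryo is 1 replicate. The study speaks of littermates, but the labels do not tie embryos to litters. Depth limits low genes such as Pou3f4 in layer V-VI. The Pou3f1 promoter and the proteins were not used here. A gene that the naming rule selected is not reported here.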

Additional observations from a re-analysis of the deposited data

Results flagged for a closer look

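Among the 45 groups of 4 Het embryos checked, 1 held an embryo that stood apart: Pou3f4 in striatal inhibitory neurons of Het 4 read 172 CPM, with 0.84 of the group's range between it and the next embryo, and chance alone marks about 1 in 20 groups. The other 3 Het embryos read 146 to 150. Het 4 is also the Het embryo whose library carries the prefix of the WT libraries.

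Differences between classes in the change of a member were tested directly (edgeR's quasi-likelihood test, embryo as a block). Against WT, the KO change in layer V-VI minus that in layer II-IV was −0.38 for Pou3f1, −0.44 for Pou3f2 and −0.39 for Pou3f3. Against Het, it was −0.21 (adjusted p = 0.0371), −0.39 (adjusted p = 0.031) and −0.28 (adjusted p = 0.00551), where 4.81% of all genes were called and Pou3f1 was under the fold limit. For Pou3f4, the KO change in interneurons minus that in layer II-IV was 1.00 against WT, and minus that in layer V-VI it was 1.36 against WT and 0.88 against Het (adjusted p = 0.0252, with 1.48% of genes called).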

How the results depend on the processing

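Over all cells, Pou3f2 in KO against WT kept its sign throughout, but was not called with the prefix as covariate (−0.44, adjusted p = 0.226) or at most 5% mitochondrial UMIs (−0.29, adjusted p = 0.073), and ran from −0.43 to −0.25 when an embryo was left out. At fixed cluster shares, a measure that weights cells and not UMIs, it moved to −0.56, and against Het to −0.39. Pou3f1 in KO against WT gained a call with DESeq2 (−0.25, adjusted p = 0.029), with no filter (−0.26), at 3000 UMIs or more (−0.27) and at most 5% mitochondrial UMIs (−0.27), and ran from −0.36 to −0.17 without 1 embryo, called without KO 2 or WT 2. Pou3f4 gained a call at most 5% mitochondrial UMIs (0.27) and ran from 0.0756 to 0.33, called without KO 1.

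Pou3f3 had no stable sign over all cells. In Het against WT (0.0016) it turned with DESeq2 (−0.0015), its size factors (−0.0015), no filter (−0.0076), the prefix covariate (−0.13), only these groups (−0.0002), 3000 UMIs (−0.0079) and fixed shares (−0.0289), and ran from −0.0843 to 0.0849 without 1 embryo. In KO against WT it turned with the prefix covariate (−0.13) and fixed shares (−0.10) and ran from −0.0265 to 0.13. Against Het it turned at fixed shares (−0.0707), and within the prefix it ran from −0.0515 to 0.10, where Pou3f1 ran from −0.29 (called, without KO 2) to −0.11. Pou3f4 in Het against WT ran from −0.0065 to 0.12. The log2 ratio in striatal neurons ran from −0.16 to 0.0548, above 0 without KO 1.

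Pairs of a member and a class called in Het against WT numbered 3, but 5 with no filter, 0 with the prefix covariate and 0 to 3 without 1 embryo. In KO against WT there were 14, but 5 with the prefix covariate, of which 4 were among the 14. The 5 of KO against Het fell to 2 at most 5% mitochondrial UMIs, to 3 without integration and to 2 to 5 without 1 embryo, and the 5 within the prefix to 3 to 5. Listed genes called in Het against WT numbered 2, but 4 with DESeq2, 1 with no filter, 0 with the prefix covariate or only these groups, 5 at most 5% mitochondrial UMIs, and 0 to 7 without 1 embryo, 0 in 7 of 10 such fits. In KO against WT 13 were called, but 8 with the prefix covariate. The causes were not tested.

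Of 9 same-numbered pairs of embryos, 3 had r over 0.1 (−0.0074 to 0.25). Differently numbered pairs were not compared, so these values cannot decide whether replicate numbers pair the embryos. With a replicate block, 17 pairs of a member and a class were called in KO against WT, 3 in Het against WT, 6 in KO against Het and 4 within the prefix, and 7 listed genes in Het against WT. No call of a class changed direction under any alternative run.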

Other observations

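Cells with a UMI of both Pou3f2 and Pou3f3, after thinning to 3000 UMIs, made up 60.3% of layer II-IV neurons in WT, 58.8% in Het and 55.3% in KO, and 70.0%, 60.8% and 60.8% of intermediate progenitors. In layer II-IV, WT (56.4 to 63.2%) and KO (50.2 to 58.7%) embryos overlapped. The product of the single shares of the 2 genes went the same way there, at 56.4%, 54.6% and 51.1%. In erythroid cells the share was 0.696% in WT and 0 in KO. Over 20 clusters, Pou3f2 was lower in every KO embryo than in every WT embryo in 10 clusters and higher in none, Pou3f1 lower in 9 and higher in 1, Pou3f3 lower in 7 and higher in 1, and Pou3f4 lower in 5 and higher in 3. In these clusters 11.9 to 83.8% of the genes with over 3 UMIs in every embryo were lower without overlap and 0.781 to 22.1% higher. The counts of the members had no such limit. For Pou3f1, Pou3f2 and Pou3f3 they include the erythroid, microglia and mural or fibroblast clusters, where the lowest embryo had 0 to 4 UMIs. Counts and shares are therefore not fully comparable. These counts were taken after the data were seen and were not tested.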
